A study of Mus musculus with 8 samples.

Results

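Imprinted genes are expressed from the allele of 1 parent. The choice is set by control regions whose CpG sites are methylated on the chromosome of 1 parent and unmethylated on the other, a mark laid down in the germ line and copied at each cell division by DNA methyltransferase 1. A control region that keeps its imprint is therefore read near the middle of the scale in a bulk sample, and many imprinted genes act on growth, as Igf2 and Cdkn1c do. Methylation was described here at 40 imprinted or host genes of the mouse, in leukaemic progenitor cells exposed to a mutant IDH1 inhibitor, to azacitidine or to both.

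The members were the CpG cytosines inside each of the 40 genes or within 2000 bp of it (mm10 coordinates, autosomes), summed for each library over tiles of 1000 bp. They held 7733 of the 3883480 autosomal positions, in 503 tiles. Tiles with fewer than 3 positions, or with fewer than 20 reads in any library, were left out, which left 89 tiles at 33 genes, of 43285 autosomal tiles. The other 7 genes had no tile past this minimum, namely the retrogenes Mcts2 and Nap1l5, the sarcoglycan gene Sgce, the zinc finger gene Zim1, and Snrpn, Snurf and Ndn of the Prader-Willi cluster. Each gene had between 30 and 932 covered positions, at Ndn and Gnas, and reads in a tile are counted once for each cytosine they cover.

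Reduced representation bisulfite sequencing (RRBS), in which a restriction digest picks CpG-rich DNA before conversion and sequencing, had been done on genomic DNA of I1DN cells, a transplantable mouse leukaemia, sorted as cKit positive and Cd11b negative. Recipient mice had been given Vehicle, AG120 (ivosidenib, which blocks the mutant IDH1 enzyme), AZA (azacitidine, a nucleoside that traps DNA methyltransferases) or both drugs (the combination), with a time label of 5 days. Each of the 4 groups had 2 libraries, and all groups shared the I1DN cells. The labels do not spell out the alleles that I1DN stands for, the recipient strain or the age of the mice, and they do not say whether the 2 libraries came from separate mice, so a p-value here measures only the spread between libraries.

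Library totals lay between 90373925 and 130796962 cytosine calls. Of the autosomal calls, 31.9 to 38.4% were methylated in the 4 libraries without AG120 and 40.7 to 49.8% in the 4 with it. This share weighs each position by its reads. With each tile weighed alike, tiles outside the imprinted genes had mean levels of 48.1% in Vehicle and 48.4% with AG120. With AZA the mean was 46.9%, and with the combination 48.0%. The part of the difference in call shares in the results below was not tested. DNA methylation gives no direct reading of cell identity. Tiles at the start of the progenitor genes Flt3 (chr5:147400001-147401000) and Cd34 (chr1:194938001-194939000) had mean levels of 1.47 and 2.06%. Of the 22 tiles of the progenitor list, however, 8 were under 20% and 9 at 80% or more. Of the 2 mature myeloid tiles, that of Itgam, the gene of Cd11b, had 98.7%, and that of Adgre1 had 34.98%, with 0% in 4 libraries and 100% in 1. The lymphoid gene Cd79a, at 1.05 and 1.48% in its pair of tiles, was low too. Of the 14 tiles of the lymphoid list, 6 were under 20% and 2 at 80% or more. Of the tiles of the marker lists of progenitor, mature myeloid, lymphoid, erythroid and stromal genes, 0 passed edgeR's quasi-likelihood test in any pairwise comparison. At most 2 of a list were under an unadjusted p of 0.05 in that test, as were 2.45 to 3.95% of all tiles.

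The RefSeq promoter windows of GRCm38.p6, whose coordinates are those of mm10, show which sequence these levels describe. Of 31 member genes with a window, 5 are printed here as the 250 bases before the start, 5′ to 3′ on the strand of the gene, with the CpG dinucleotides read in at least 1 library in capitals. Mkrn3, which all libraries read, Igf2r and Plagl1 were picked to show promoters with levels that varied from library to library. Mcts2 was picked as a promoter methylated nearly throughout, and Gnas as an unmethylated one.
Mkrn3: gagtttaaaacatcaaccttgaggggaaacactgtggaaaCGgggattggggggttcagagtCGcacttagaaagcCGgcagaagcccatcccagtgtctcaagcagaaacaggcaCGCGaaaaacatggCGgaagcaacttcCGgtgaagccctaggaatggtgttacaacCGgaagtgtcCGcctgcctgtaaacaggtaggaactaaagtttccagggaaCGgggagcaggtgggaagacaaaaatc
Igf2r: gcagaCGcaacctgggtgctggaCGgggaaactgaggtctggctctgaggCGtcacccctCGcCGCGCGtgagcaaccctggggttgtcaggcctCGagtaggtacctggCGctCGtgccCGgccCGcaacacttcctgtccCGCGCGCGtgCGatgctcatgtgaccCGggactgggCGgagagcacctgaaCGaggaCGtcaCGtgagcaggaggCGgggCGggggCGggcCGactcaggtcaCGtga
Plagl1: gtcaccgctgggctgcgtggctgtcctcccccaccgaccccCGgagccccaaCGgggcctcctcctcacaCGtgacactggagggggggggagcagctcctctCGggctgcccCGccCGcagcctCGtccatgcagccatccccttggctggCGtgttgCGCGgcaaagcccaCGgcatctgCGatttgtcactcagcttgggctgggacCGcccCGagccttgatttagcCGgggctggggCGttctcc
Mcts2: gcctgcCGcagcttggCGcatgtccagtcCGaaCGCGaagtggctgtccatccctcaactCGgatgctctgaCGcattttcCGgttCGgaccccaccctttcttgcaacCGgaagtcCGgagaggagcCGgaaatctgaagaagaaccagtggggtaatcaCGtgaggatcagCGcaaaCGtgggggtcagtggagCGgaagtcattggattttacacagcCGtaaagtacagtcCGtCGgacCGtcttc
Gnas: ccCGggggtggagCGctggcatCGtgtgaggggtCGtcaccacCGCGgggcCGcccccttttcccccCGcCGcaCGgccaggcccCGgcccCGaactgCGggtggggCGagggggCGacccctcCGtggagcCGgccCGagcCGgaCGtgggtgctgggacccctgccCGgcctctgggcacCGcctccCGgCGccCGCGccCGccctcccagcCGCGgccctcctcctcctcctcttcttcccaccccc

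The Mkrn3 window (chr7:62420154-62420403, minus strand) had 10 CpGs, all read, and levels of 70.7 and 69.2% in Vehicle, 78.2 and 48.5% with AG120, 75.5 and 27.6% with AZA and 25 and 74.96% with the combination. The Igf2r window (chr17:12769707-12769956, minus strand) had 27 CpGs and was read in 7 libraries, from 5.56% in AG120 replicate 1 to 98.0% in AG120 replicate 2. At the Plagl1 window (chr10:13090582-13090831, plus strand), 16 of 19 CpGs were read, with levels of 94.4% or more in both combination libraries and at most 44.3% in the other 5 libraries that read it. Read counts in these 3 windows went down to 40, 7 and 29 in single libraries. At Mkrn3 and Igf2r, libraries of 1 group stood far apart, although the low value of Igf2r with AG120 rested on 18 reads. At Plagl1, both AZA libraries (0% of 166 reads and 24.1%) lay below the higher Vehicle library.

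Mcts2, a retrogene in an intron of H13, did not pass the tile minimum, yet all 20 CpGs of its promoter window (chr2:152686898-152687147, plus strand) were read. Its levels were 99.99% of 8577 reads and 100% of 31 in Vehicle, 100% of 8 and 2151 reads with AG120, 77.8 and 99.7% with AZA, and 96.8 and 99.5% with the combination. None of the 8 libraries was near the middle. The main promoter of Gnas, the gene of the stimulatory G protein alpha subunit (chr2:174329756-174330005, plus strand), was at the other end. All 29 of its CpGs were read, with a highest level of 4.98% in the 7 libraries that read it. Reads from a retrogene can share sequence with its parent gene, and how such reads were placed is not given in the sources used here.

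The zinc finger protein ZFP57, which holds the methyl mark on control regions through early development, recognises the methylated hexamer TGCCGC. This hexamer, searched on both strands of the full 300-base windows (250 before the start and 50 after), stood in 12 of 49 member windows (24.5%) and in 3813 of all 32851 windows (11.6%). The member windows also held more CpGs, with a median of 11 against 7. In the 250 bases before the start, Mcts2 and Plagl1 had the hexamer, and Mkrn3, Igf2r and the main Gnas window did not. Which windows hold it in the 50 bases after the start is not given here.

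Levels between the extremes were more frequent at the imprinted genes than elsewhere. By the unweighted mean of the 8 libraries, 28 of the 89 tiles (31.5%) lay at 35 to 65%, against 3408 of 43196 other tiles (7.89%). Under 20% were 21 imprinted tiles (23.6% against 41.2% of the others), and at 80% or more were 27 (30.3% against 37.98%). The remaining 13 tiles lay between these classes, 5 at 20 to 35% and 8 at 65 to 80%. The class does not by itself show an imprint, since it is a mean over libraries that differed widely.

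**Figure D1:**
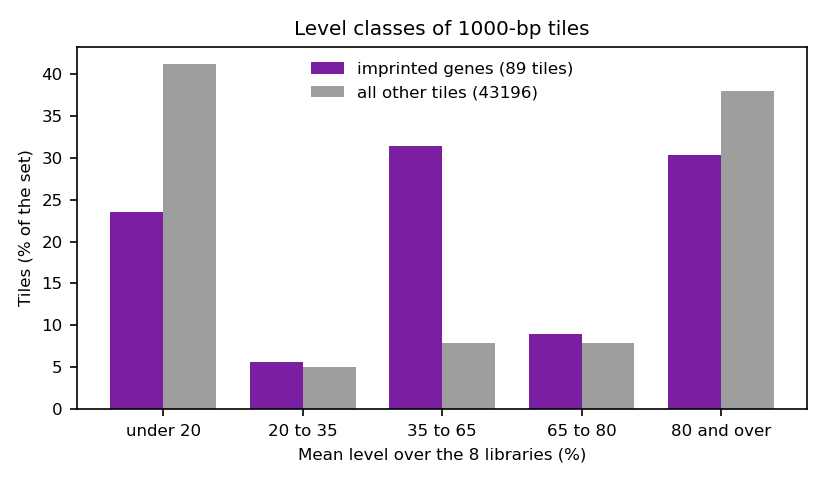
Share of 1000-bp tiles (vertical axis, percent of the set) in each class of mean methylation level over the 8 libraries (horizontal axis, percent), for the imprinted genes (purple) and all other tiles (grey). The 35 to 65% class holds 31.5% of the imprinted tiles and 7.89% of the others.

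The 28 intermediate tiles came from Gnas and 13 other loci, and Gnas gave 9 of them. A locus with more than 1 was Zrsr1 in the intron of Commd1 with 3, and Grb10, the Igf2r and Airn pair, Cdkn1c and Phlda2 with 2 each. H13, Dlk1, Meg3, Peg13, Trappc9 outside Peg13, Magel2, Mkrn3 and Kcnq1 gave 1 each. A given library held at most 14 of them in that range. The number at 35 to 65% was 11 and 12 in Vehicle, 14 and 12 with AG120, 14 and 13 with AZA, and 7 in each combination library.

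**Figure D2:**
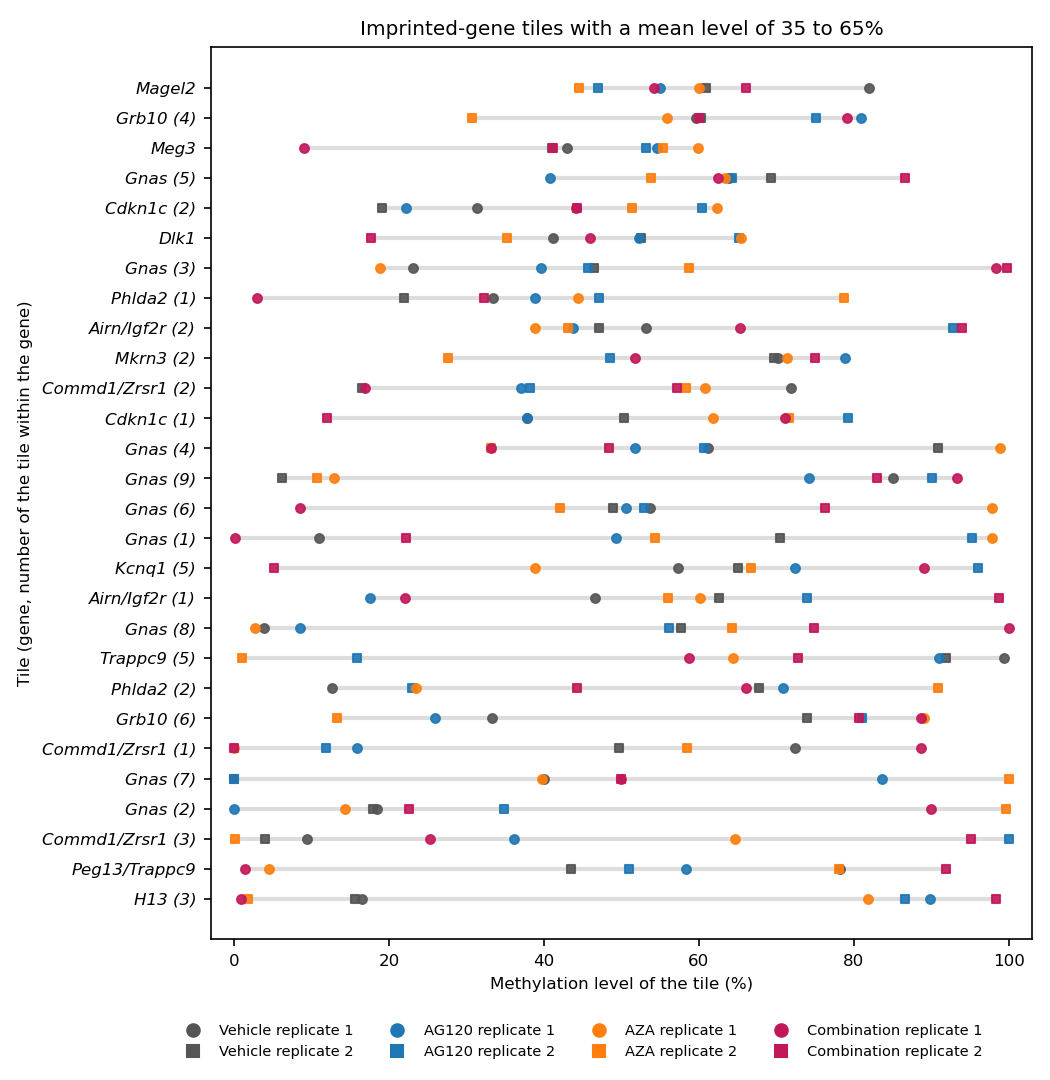
Methylation level (horizontal axis, percent) of the 28 imprinted tiles with a mean of 35 to 65%, 1 row per tile, in each library (colour gives the group, circle and square the replicate, grey line the range); rows are ordered by the spread within groups, smallest at the top. The Magel2 tile at the top spans 44.6 to 81.9%, and the H13 and Peg13 tiles at the bottom span nearly the whole axis.

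Replicates of 1 group often differed at these tiles. The SD within groups, pooled over the 4 groups, had a median of 29.9 percentage points (quartiles 16.7 and 36.0) over the 28 tiles and 22.4 points (15.7 and 30.5) over the 3408 other tiles of the class. The 2 libraries of a group differed by more than 50 points in 31 of 112 cases (27.7%), against 16.5% at the other tiles. Counting error was smaller, with exact 95% binomial intervals of a median width of 4.34 points, and the intervals of the 2 replicates lay apart in 92 of the 112 cases. PCR reads are not independent molecules and a read counts at each of its CpGs, so these intervals and the limits given for a count of 0 cover counting error only.

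Tiles with more positions had closer replicates. The median pooled SD was 35.7 points in the 6 imprinted tiles with fewer than 20 positions, 29.0 in the 12 with 20 to 59 and 25.2 in the 10 with at least 60. In the other tiles of the class it was 25.4, 21.5 and 14.6 points. Few cytosines were read in all libraries. Of 1757 positions in the 28 tiles, 42 (2.39%) were read in all 8 libraries and 3 had at least 10 reads in all. In the other tiles of the class these numbers were 6744 of 107986 (6.25%) and 2572. Single positions were mostly at an end of the scale. Of 3816 values with at least 10 reads, 38.1% were at 5% or less and 38.5% at 95% or more, against 42.2 and 36.6% in the other tiles.

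**Figure D3:**
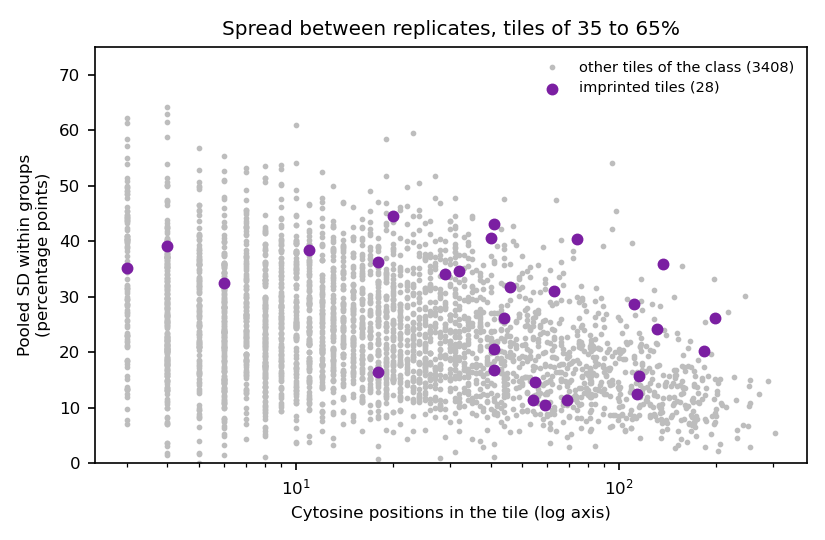
SD of the methylation level within groups, pooled over the 4 groups (vertical axis, percentage points), against the number of cytosine positions in the tile (horizontal log axis), for the 28 imprinted tiles (purple) and the 3408 other tiles (grey) with a mean of 35 to 65%. With at least 60 positions, the median is 25.2 points for the purple points and 14.6 for the grey.

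Neighbouring CpGs shared their state more often at imprinted tiles than at other tiles with the same mean level. A pair was a cytosine and the next one 2 to 50 bp away in the same library with a read count within 2% of it, both with at least 10 reads and both at 5% or less or at 95% or more. In the 28 imprinted tiles, 1834 of 2082 pairs (88.1%) were in the same state, against 98700 of 136261 (72.4%) in the 3408 other tiles. The imprinted share was the higher in each of the 8 libraries, at 86.4 to 90.5% against 69.7 to 76.3%. In tiles with at least 40 positions the shares were 87.8 and 72.8%. Of 777 other tiles with at least 50 pairs, 54 (6.95%) reached the median of 90.6% of the 16 such imprinted tiles. A library at an end of the scale gives pairs that agree by construction, so the shares were also taken over the libraries whose own level in a tile was 35 to 65%. There 764 of 884 imprinted pairs (86.4%) and 67.9% of 73004 other pairs were in the same state, and the imprinted share was again the higher in each library, at 70.8 to 94.5% against 63.1 to 71.9%. Pairs of a tile are not independent, the measure was defined after the data had been seen, and it was given no test.

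**Figure D4:**
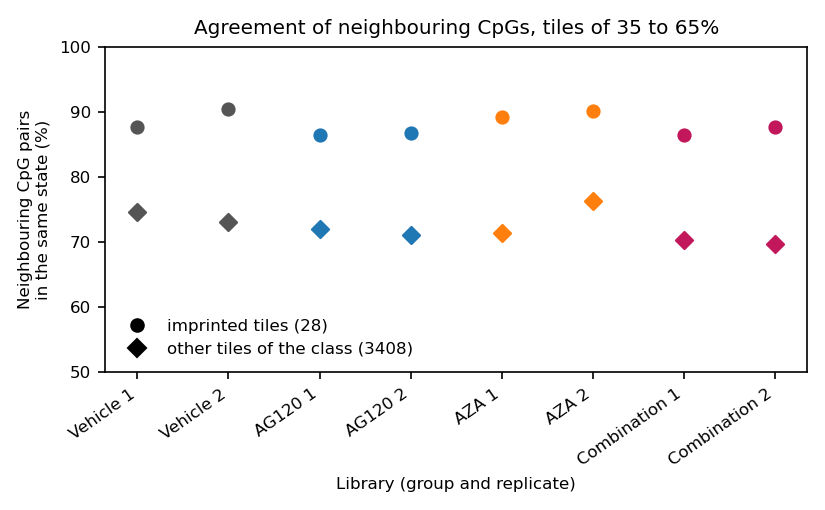
Share of neighbouring CpG pairs in the same state (vertical axis from 50 to 100%) in each library (horizontal axis, group and replicate; colour gives the group), in the 28 imprinted tiles (circles) and the 3408 other tiles of the 35 to 65% class (diamonds). The circles lie at 86.4 to 90.5% and the diamonds at 69.7 to 76.3%.

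The agreement differed among the imprinted tiles. It was 98.8% in the Gnas tile at chr2:174327001-174328000, which holds other annotated starts of the gene. The next Gnas tile (chr2:174328001-174329000), before the main start, had 98.6%, and Zrsr1 (chr11:22972001-22973000) had 97.2%. The agreement was lower at Dlk1 with 78.6%, Grb10 (chr11:12036001-12037000) with 64.2% and Magel2 with 58.5% (48 of 82 pairs). Tiles outside the intermediate class were not set against these, since pairs agree by construction where a library is at an end of the scale. The shares of single tiles share this limit, as they were taken over all libraries. The Gnas tile at chr2:174328001-174329000 had levels of 6.16 to 12.8% or of 74.2 to 93.3%, and Magel2 had 44.6 to 81.9%. The order of these tiles therefore cannot be told apart from where their libraries lay on the scale. As background, the start of Zrsr1 is a textbook germline control region, while the Magel2 and Dlk1 promoters are not germline marks. The coordinates of control regions were not used here, and the intermediate tiles were not sorted by germline status. Whether the agreement differs with that status was not tested.

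Over the 28 tiles, the mean level was 47.0% ± 0.290 in Vehicle (SD, n = 2), 54.0% ± 6.78 with AG120, 50.6% ± 1.86 with AZA and 54.8% ± 5.90 with the combination. The other tiles of the class had 49.8, 51.7, 48.5 and 52.1% in the same order. The imprinted tiles under 20% had means of 10.3% ± 2.07, 8.30% ± 1.39, 5.64% ± 1.65 and 6.71% ± 3.74, and those at 80% or more 93.9% ± 3.26, 91.2% ± 4.61, 91.1% ± 0.162 and 93.0% ± 0.646. Differences between group means of the intermediate tiles were of the size of the spread in the AG120 and combination groups.

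At the growth-restraining Igf2r locus, the antisense RNA Airn starts from the control region in an Igf2r intron and silences Igf2r on the paternal chromosome. The tile just inside the start of Airn (chr17:12742001-12743000) stood at 46.6 and 62.6% in Vehicle, 17.5 and 73.9% with AG120, 60.2 and 56.0% with AZA and 22.1 and 98.8% with the combination. Vehicle and AZA replicates were near each other and in the middle, and the others were far apart. The tile at the start of Igf2r, the receptor that removes the growth factor IGF2 (chr17:12769001-12770000, 183 positions), had 53.2 and 47.1%, 43.8 and 92.8%, 38.8 and 43.1%, and 65.3 and 94.0% in the same order. The AZA libraries lay below the Vehicle ones and the combination libraries above, with group differences smaller than the AG120 gap of its 2 replicates.

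Gnas, a complex locus whose alternative first exons are used by different parental alleles, carried 9 intermediate tiles and 1 unmethylated one. The tile over its most upstream start (chr2:174284001-174285000) had levels of 11 and 70.5% in Vehicle, 49.3 and 95.2% with AG120, 97.9 and 54.4% with AZA and 0.0866 and 22.2% with the combination. The combination libraries lay below the AG120 and AZA ones and overlapped those of Vehicle. The Gnas tile with the most even levels (chr2:174299001-174300000, 114 positions) had 63.9 and 69.3%, 40.8 and 64.3%, 63.3 and 53.8%, and 62.4 and 86.6% in the same order. The tile at chr2:174328001-174329000 went from 85.0 to 6.16% between the Vehicle replicates, was low with AZA (12.8 and 10.7%) and high with AG120 (74.2 and 90.1%) and the combination (93.3 and 83.0%). The tile at the main start (chr2:174330001-174331000) stayed at 1.99% or less in every library, with 2873 to 8559 reads.

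The Kcnq1 domain of distal chromosome 7 is silenced on the paternal chromosome by the long non-coding RNA Kcnq1ot1. The tile at the start of Kcnq1ot1 (chr7:143295001-143296000) had 30.8 and 32.3% in Vehicle, 3.73 and 33.6% with AG120, and 100 and 29.7% with AZA. Both combination libraries had 0 methylated reads, of 95 and 96, which allows 3.16 and 3.13%. Of the genes this RNA silences, Cdkn1c encodes the cyclin kinase inhibitor p57. Its most-read intermediate tile (chr7:143459001-143460000, 198 positions) had 37.8 and 50.4% in Vehicle, 37.8 and 79.3% with AG120, 61.8 and 71.7% with AZA and 71.2 and 12.02% with the combination. Phlda2, a placental growth restrainer, had 12.7 and 67.7%, 70.9 and 23.0%, 23.4 and 90.8%, and 66.1 and 44.3% (chr7:143502001-143503000). All 4 groups of Phlda2 overlapped. The Kcnq1 tile at chr7:143412001-143413000 had 57.3 and 65.1%, 72.4 and 96.1%, 38.8 and 66.8%, and 89.04 and 5.19%, and the transporter gene Slc22a18 a mean of 71.2%.

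H19, a growth-suppressing RNA of the maternal chromosome, and Igf2, the growth factor of the paternal one, share a control region upstream of H19 that lay outside the 2000 bp used here. The only H19 tile (chr7:142575001-142576000) ranged from 1.37% in combination replicate 2 to 100% in AG120 replicate 1. Of the 6 Igf2 tiles, 5 had a mean under 20%, among them the best read (chr7:142659001-142660000). That tile had 6.49 and 6.18% in Vehicle, 12.9 and 14.3% with AG120, 5.63 and 0.559% with AZA and 5.39 and 12.4% with the combination. The AG120 libraries lay above both Vehicle libraries, by 7.27 points on average.

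Among the paternally expressed retrogenes inside host genes, Zrsr1 and its host Commd1 differed. The tile at the start of Zrsr1 (chr11:22972001-22973000, 131 positions) had 71.9 and 16.5% in Vehicle, 37.1 and 38.2% with AG120, 60.8 and 58.4% with AZA and 16.8 and 57.2% with the combination. The Vehicle pair had the largest gap of the 4 groups. The start of Commd1 (chr11:22982001-22983000) was nearly unmethylated at a mean of 2.65%. The Peg13 RNA inside Trappc9 (chr15:72809001-72810000) had 78.2 and 43.4%, 58.4 and 50.9%, 4.50 and 78.1%, and 1.38 and 91.9%, with replicates apart by more than 50 points in both groups given AZA. Trappc9 itself had 7 of its 11 other tiles at 80% or more and 3 under 20%. The H13 tile at chr2:152696001-152697000 had 16.5 and 15.6%, 89.8 and 86.6%, 81.9 and 1.77%, and 0.896 and 98.3%. Its AG120 libraries stood 72.2 points above those of Vehicle, with close replicates in both groups. Inpp5f, whose internal transcript is imprinted, had 0% of 294 and 630 reads in Vehicle at chr7:128688001-128689000, allowing 1.02 and 0.476%, 7.14 and 39.2% with AG120, 89.96% and 0% (of 594 reads, allowing 0.505%) with AZA and 74.9 and 25.2% with the combination. AZA overlapped Vehicle there.

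Plagl1, a zinc finger growth regulator, and Grb10, an adaptor that dampens growth factor signalling, had tiles above and across the middle. Plagl1 (chr10:13090001-13091000) had 43.0 and 41.7% in Vehicle, 89.9 and 30.4% with AG120, 76.9 and 95.1% with AZA and 91.9 and 70.9% with the combination. The AZA and combination libraries lay above both Vehicle libraries. In the promoter window inside this tile the order of AZA and Vehicle was the other way by their means, with 0 and 24.1% against 16.8 and 44.3%. At chr11:12026001-12027000 Grb10 had 63.4 and 61.3%, 64.3 and 85.0%, 56.7 and 66.6%, and 76.5 and 79.2%. Of its 2 intermediate tiles, the one with the most reads (chr11:12036001-12037000) had 59.6 and 60.3%, 80.9 and 75.1%, 55.9 and 30.7%, and 79.1 and 60%. The other, which starts at chr11:12038001, had 33.3 and 74.0%, 25.9 and 81.0%, 89.1 and 13.3%, and 88.7 and 80.6%. Dlk1, a Notch ligand, and Meg3, a maternally expressed RNA, form another growth locus. Dlk1 (chr12:109453001-109454000) had 41.2 and 52.5%, 52.3 and 65.1%, 65.4 and 35.2%, and 45.9 and 17.7%. Meg3 (chr12:109540001-109541000) had 43.0 and 41.1%, 54.5 and 53.2%, 59.9 and 55.4%, and 9.06 and 41.2%. In Meg3 the AG120 and AZA libraries lay above both Vehicle libraries, on as few as 22 reads. The retrotransposon-derived Rtl1 was at 97.7 and 85.0% in its tiles.

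Of the remaining genes, Magel2 and Mkrn3 lie in the Prader-Willi cluster. Magel2 (chr7:62377001-62378000) had 81.9 and 60.9%, 54.9 and 47.0%, 60 and 44.6%, and 54.2 and 66.1%, and its pooled SD of 10.5 points was the lowest of the 28 tiles. Mkrn3 (chr7:62420001-62421000) had 70.2 and 69.7%, 78.9 and 48.5%, 71.3 and 27.6%, and 51.8 and 74.96%. Peg3, a zinc finger gene, and Usp29 share the tile at their starts (chr7:6730001-6731000), which had a mean of 25.9% and ranged from 0% of 172 reads, allowing 1.74%, to 75% of 28 reads. Mest (chr6:30739001-30740000) ranged from 0% of 20 reads, allowing 15%, to 91.2%. Impact at chr18:12973001-12974000 had 52.4 and 5.80% in Vehicle and a mean of 13.7%. Peg10 had tiles with means of 92.5 and 93.5%, and the 2 Ddc tiles, the 2 Rtl1 tiles and the 2 Slc38a4 tiles were all at 80% or more, as were 3 of 4 Usp29 tiles. Asb4, of the Peg10 cluster, had means of 17.6 and 10.8% in its 2 tiles, and Herc3, the host of Nap1l5, had 1.02% near its start and 94.8 and 92.1% in 2 other tiles. Rasgrf1 had 4.67 and 13.5% at its start and 90.6% within the gene. Its control region upstream was outside the windows.

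For the treatments, each tile was fitted across all 42962 tested tiles. No imprinted tile passed an adjusted p of 0.05 in edgeR's quasi-likelihood test with Benjamini-Hochberg adjustment, in any of 5 pairwise comparisons or in the averages of each drug, and the smallest adjusted p was 1. The same test called 0.0% of all tiles. At an unadjusted p under 0.05, imprinted tiles numbered 0 of 89 for AG120 against Vehicle, 1 for AZA, 5 for the combination, 3 for the combination against AZA and 2 against AG120, while 2.84, 2.45, 3.95, 3.82 and 3.38% of all tiles were under it. The averages had 2 such imprinted tiles for AG120 (3.35% of all tiles) and 3 for AZA (2.64%). These counts rose or fell when single libraries were left out, and so did the counts over all tiles. Such a fit leaves 1 library in a group, so its counts are not given. Limma called no tile at all. The likelihood ratio test called no imprinted tile and at most 0.915% of all tiles in a comparison. DESeq2 called 0, 0, 1, 3 and 1 imprinted tiles in the 5 pairwise comparisons, against 0.151, 0.126, 0.638, 1.19 and 1.23% of all tiles, and 1 each in the averages of AG120 (1.43%) and AZA (0.873%). At such shares, single calls among 89 tiles are near the background. The interaction of the drugs had no imprinted tile called, a smallest p of 0.0581 and none under 0.05.

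The median difference over the 89 tiles was −0.15 points for AG120 against Vehicle, −0.92 for AZA, −1.30 for the combination, 0.22 for the combination against AZA and 0 against AG120. Over all tiles it was −0.00925, −0.247, −0.0943, 0 and 0. Leaving out 1 library turned the sign for AG120 (−0.54 to 0.27) and the combination (−1.30 to 0.85) against Vehicle, and over the 6 imprinted tiles left with only positions of 5 or more reads in every library the combination had −15.8. In the 28 intermediate tiles, the medians were 7.32, 3.45, 1.66, 3.85 and 1.29. In the intermediate tiles outside the imprinted genes they were 2.12, −1.28, 2.59, 4.16 and 0.389 in the same order. The imprinted median was the lower for the combination against Vehicle and against AZA, and the higher in the other comparisons. Groups did not overlap, with the treated group lower in 16 and higher in 18 imprinted tiles for AG120 (17.3 and 13.0% of all tiles), in 18 and 11 for AZA (18.4 and 12.1%) and in 11 and 17 for the combination (19.8 and 12.5%). For the combination the counts were 11 lower and 12 higher against AZA (16.2 and 14.5%), and 18 and 8 against AG120 (15.1 and 12.4%). The imprinted counts lay on either side of these background shares. Between the 4 libraries with a drug and the 4 without it, groups did not overlap in 1 imprinted tile, lower with AZA (1.51% of all tiles), and in 0 that were higher with AZA (0.802%), or lower (2.06%) or higher (1.39%) with AG120.

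**Figure D5:**
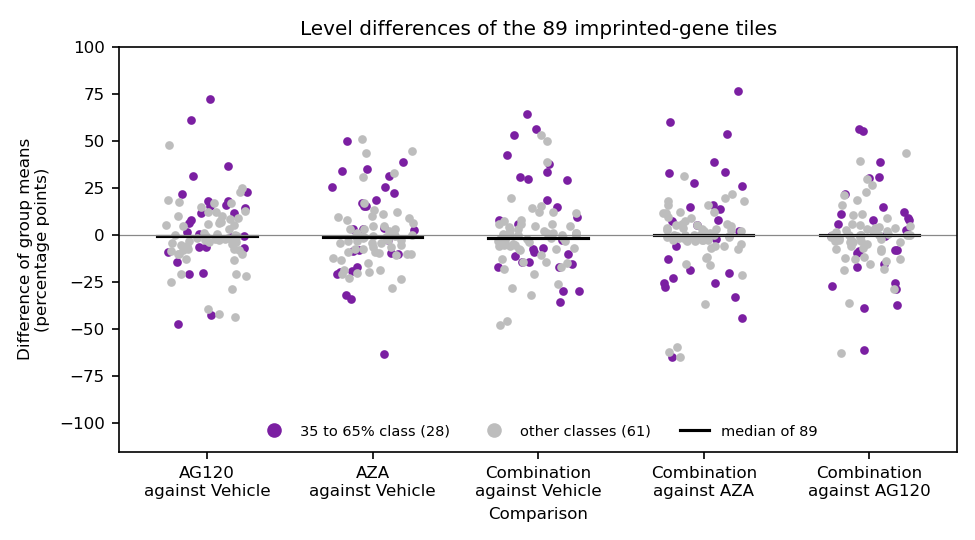
Difference of group mean levels (vertical axis, percentage points) of the 89 imprinted tiles in each of 5 comparisons (horizontal axis; points jittered sideways), with the 28 tiles of 35 to 65% in purple, the 61 others in grey and the median of all 89 as a black line. Purple points spread as far as 76.4 points from 0, and each median lies within 1.30 points of it.

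The tile with the smallest unadjusted p in the combination against AZA and AG120 was in Gnas (chr2:174287001-174288000, 18 positions), in the first part of the gene. Its levels were 23.1 and 46.5% in Vehicle, 39.7 and 45.7% with AG120, 18.8 and 58.8% with AZA and 98.4% (exact 95% interval 94.2 to 99.8%, 123 reads) and 99.8% (99.1 to 99.97%, 810 reads) with the combination. Both combination libraries lay above all 6 others. The group means were 34.8% ± 16.5 and 99.1% ± 0.975 (SD, n = 2), a difference of 64.3 points from Vehicle, with a log2 odds ratio of 8.20 ± 3.004 (SE) and an unadjusted p of 0.0177 in the quasi-likelihood test (adjusted p = 1). DESeq2 gave an adjusted p of 0.0256 for it. It was 60.3 points above AZA (40.3 without AZA replicate 1 and 80.3 without AZA replicate 2) and 56.4 above AG120, at unadjusted p of 0.0211 and 0.0227 in the quasi-likelihood test (adjusted p = 1). Its neighbouring CpGs shared their state in 13 of 20 pairs.

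Peg10, a retrotransposon-derived gene needed in the placenta, had the smallest p for AZA and for the combination against Vehicle at chr6:4756001-4757000. Its levels were 100% in both Vehicle libraries (665 and 411 reads), 95.4 and 99.6% with AG120, 92.9 and 89.02% with AZA and 83.7 and 87.1% with the combination. All 4 libraries given AZA lay below the 4 others. No unmethylated read in the Vehicle libraries allows 0.451 and 0.730% unmethylated, so an odds ratio has no finite estimate. The combination differed from Vehicle by −14.6 points, at an unadjusted p of 0.0169 in the quasi-likelihood test (adjusted p = 1). AZA alone differed by −9.02 points, at an unadjusted p of 0.0244 in that test. DESeq2 gave an adjusted p of 0.0488 for the libraries with AZA against those without. It was the 1 tile of the 89 with that order.

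At Kcnq1ot1, the combination was 31.5 points below Vehicle (unadjusted p = 0.0683 in the quasi-likelihood test, adjusted p = 1) and 64.9 points below AZA (unadjusted p = 0.0351). Without AZA replicate 1, whose level was 100%, the latter was −29.7 points, and without AZA replicate 2 it was −100. DESeq2 gave an adjusted p of 0.0112 for it, and 0.0299 for the average of AG120. Gnas at chr2:174284001-174285000 was 64.95 points lower in the combination than with AZA (unadjusted p = 0.0881, DESeq2 adjusted p = 0.0499). Among the largest gains of the combination over AZA was the Gnas tile at chr2:174328001-174329000, with 76.4 points and an unadjusted p of 0.0539 in the quasi-likelihood test.

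Among tiles with non-overlapping groups and large single-drug differences, several turned on 1 library, but not all. The Trappc9 tile at chr15:72964001-72965000 had 17.9 and 94.8% with AG120 and 100% in both Vehicle libraries, a difference of −43.6 points that was −5.17 without AG120 replicate 1. The Trappc9 tile at chr15:72928001-72929000, with 3 positions, was 63.0 points lower with AZA and 42.2 lower with AG120. The first was −31.3 without AZA replicate 2 and −94.7 without AZA replicate 1, and the second −4.70 without AG120 replicate 2 and −79.7 without AG120 replicate 1. The Zrsr1 tile at chr11:22974001-22975000 was 48.2 points higher with AG120 and 51.0 with AZA, which became 18.8 and 21.6 without Vehicle replicate 1, whose level of 9.09% rested on 44 reads. Phlda2 at chr7:143501001-143502000 was 33.9 points higher with AZA, and 16.7 without AZA replicate 2. By their levels, the largest AG120 loss and gain did not turn on 1 library. The loss, at the Zrsr1 tile that starts at chr11:22971001, had 72.4% (of 29 reads) and 49.7% in Vehicle and 15.8 and 11.9% with AG120. The gain, at the intermediate H13 tile, had 16.5 and 15.6% in Vehicle and 89.8 and 86.6% with AG120. In both tiles, replicates lay more than 50 points apart with AZA and with the combination. None of the tiles named here passed an adjusted threshold.

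Other imprinted genes outside the member list gave 71 tiles at 29 of 33 matched genes, of which 12 (16.9%) were intermediate and 0 were called by the quasi-likelihood test, with 5 under an unadjusted p of 0.05 for AG120 against Vehicle (2.84% of all tiles were under it), 2 for AZA, 2 for the combination and 4 each for the combination against AZA and against AG120. In the comparisons after AG120 against Vehicle, in the same order, 2.45, 3.95, 3.82 and 3.38% of all tiles were under it. The 2 for the combination against Vehicle were Gatm, a creatine synthesis enzyme, and the phosphodiesterase Pde10a. The Gatm tile at chr2:122610001-122611000 had 62.9 and 58.8% in Vehicle, 1.47% and 0% (of 72 reads, allowing 4.17%) with AG120, 67.3 and 44.1% with AZA and 99.7 and 100% with the combination (unadjusted p = 0.0454). Its AG120 libraries were the lowest and its combination libraries the highest. Pde10a (chr17:8969001-8970000) had 99.8% ± 0.0262 in Vehicle and 81.4% ± 8.27 with the combination (SD, n = 2), at an unadjusted p of 0.0341 (adjusted p = 1, quasi-likelihood test).

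Genes that maintain imprints, such as Dnmt1, Uhrf1, Trim28 and Zfp57, were matched for 22 of 22 names, with 50 tiles at 19 genes. None was intermediate, 33 were under 20%, and 0 were called in the 5 pairwise comparisons. Under an unadjusted p of 0.05 in the quasi-likelihood test were 1 for AG120 against Vehicle, 3 for AZA and 1 for the combination. For the combination against AZA and AG120 there were 3 and 2. Of all tiles, 2.84, 2.45, 3.95, 3.82 and 3.38% were under it in the same order. The 1 for the combination against Vehicle was the insulator factor gene Ctcf (chr8:105636001-105637000), at 0.879 and 0.662% in Vehicle and with 0 methylated of 4197 and 4920 reads with the combination, allowing 0.0715 and 0.0610% (unadjusted p = 0.0105, adjusted p = 1, quasi-likelihood test). Dnmt3b, a de novo methyltransferase gene, followed at 3.31% ± 0.989 and 0.236% ± 0.333 (chr2:153649001-153650000), with an unadjusted p of 0.0643 in edgeR's quasi-likelihood test. The tile at the start of Dnmt1 (chr9:20952001-20953000) had a mean of 0.554%.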

How the data were processed

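RRBS of genomic DNA gave 8 libraries, 2 in each of 4 groups. The deposited table gives methylated and unmethylated read counts, not normalized per the file headers, at each CpG cytosine, each strand on its own row. The submitters' processing notes name edgeR 3.32, R 4.0.2, Bismark 0.22.3, the mm10 build, Trim Galore 0.4.4, bcl2fastq 2.17.1.14 and SAMtools 1.4.1, with no order or role. For deduplication and conversion rate nothing is given in the sources used here, and 0 columns of samples were unused. RRBS reads only fragments cut by its enzyme. Why libraries read partly different cytosines was not tested.

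Counts were summed per 1000-bp tile and library. Tiles were fitted in edgeR 4.0.16 (R 4.3.3) in 1 model of all libraries, which had 1 coverage term for each library and 1 methylation term for each group, tested by the quasi-likelihood F-test with robust settings (two-sided; false discovery rate 0.05; Benjamini-Hochberg over all tiles tested). The code was tested on simulated data. DESeq2 1.42.0 and limma 3.58.1 (log2 ratios, pseudocount 2) were alternatives, with other read minimums (10 and 50), a 5000 bp flank, shared positions only, position means, a replicate block and each library left out. Same-numbered libraries were compared by the correlation of their deviations from group means.

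The members and lists were chosen with earlier results of these data known. Named tiles were, for each locus, the intermediate tile with the most reads; for each pairwise comparison, the 3 largest losses and gains among tiles whose groups did not overlap and the 2 smallest p; and the 2 smallest p of each list. Some tiles picked by these rules are not named in the text. Values of other tiles were added to account for every gene. The pairs of neighbouring CpGs, the interval and replicate-gap counts, the promoter windows, the split by positions and the interaction were chosen after the data had been seen. RefSeq windows matched 31 of 40 genes. As a check of the build, 99.3% of 448337 positions inside RefSeq windows fell on a CpG. Genome sequence, exon and CpG island annotation were not used here.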

Additional observations from a re-analysis of the deposited data

How the results depend on the processing

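Of 210 alternative values of the main counts, medians and classes, 199 kept their side or lay within the spread, as did 270 of 288 differences of named tiles. Part of both numbers was fixed in advance, because leaving out a library outside a comparison cannot change its difference. For a named tile the spread was its own pooled SD, which was wide at many tiles. These numbers therefore do not measure stability. DESeq2 called 1 imprinted tile in the combination against Vehicle, 3 against AZA and 1 against AG120, 1 for the average of AG120 and 1 for that of AZA (0.638, 1.19, 1.23, 1.43 and 0.873% of all tiles), where the quasi-likelihood test called 0. With only positions that had 5 or more reads in every library, 6 imprinted tiles were left. There the median differences were −3.37 points for AG120, −5.09 for AZA and −15.8 for the combination against Vehicle, and −7.55 for the combination against AG120; 1 tile was intermediate, and the median pooled SD was 14.6 points. This setting has fewer tiles by its construction. With libraries of 35 to 65% only, chosen after seeing the data, agreement of neighbouring CpGs was 86.4% in imprinted and 67.9% in other tiles. Leaving out single libraries, intermediate tiles numbered 23 (without AZA replicate 2) to 29. Their median pooled SD ran from 22.7 to 30.1 points. The median differences then ran from −0.54 to 0.27 points for AG120 against Vehicle, −2.70 to 0 for AZA, −1.30 to 0.85 for the combination, 0 to 0.30 for the combination against AZA and −0.30 to 1.005 against AG120. Same-numbered libraries correlated at −0.00498 to 0.0220 in their deviations, which gave no sign of pairing by number. This cannot settle whether the numbers pair samples, since few cytosines of the intermediate tiles were read in all libraries. The overlap of cytosines between single libraries was not measured. Over all tiles, the mean correlation of levels was 0.886 within groups and 0.884 between groups. The fit with the replicate block called 0 imprinted tiles. The quasi-likelihood test called 0 of all tiles with every library, with the block and with each library left out, so its 0 shows no stability. An intermediate tile had a median of 1213 reads in a library and as few as 22, which limits what its level can show.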
